A study of Mus musculus with 12 samples.

Results

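The genes described here are 7 long noncoding RNAs, *Yam1*, *Malat1*, *Neat1*, *Gas5*, *Snhg1*, *Kcnq1ot1* and *H19*, out of 43271 genes listed in the count table. Long noncoding RNAs code for no known protein and act as RNA molecules or through the act of their own transcription. They were chosen by name among long noncoding RNAs with a high level in these libraries, so the read counts themselves were used in the choice. Their levels are therefore given as a description, with no test. All 7 passed the filter on low counts. The word abundant held for 5 of them, whose median rank by count over the 12 libraries ran from 1 (*Yam1*) to 752.5 (*Snhg1*). It did not hold for *H19* and *Kcnq1ot1*, whose median ranks were 10964.5 and 11314.5.

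MC38CEA cells, a mouse colon adenocarcinoma line that expresses human carcinoembryonic antigen, carried either a non-targeting control shRNA or A17.2, an shRNA against *Adam17*, from lentiviral pLKO vectors. The study reports that A17.2 also lowered ADAM10, and that it lowered induced *Nos2*, presumably by off-target action. Differences between A17.2 and control cells therefore cannot be tied to *Adam17* alone. Both kinds of cells were selected with puromycin and were pools, not clones. The shRNA and the pool that carries it cannot be told apart. They were left unstimulated or received human recombinant IL1β and mouse recombinant IFNγ, each at 10 ng/ml, for 6 h, giving 4 groups of 3 libraries of poly(A)-selected RNA. The series record names the control vector as SHC016 and notes that it is toxic to cells and tends to be lost, whereas the methods of the study name SHC002. Libraries carry the numbers 1 to 3 as biological replicates, but separate cultures are not named, so p-values measure the spread between these libraries, which may be technical.

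The libraries held 16592831 to 35861103 counts. *Adam17*, the targeted gene, stood at 73.6 ± 4.54 CPM (counts scaled to a common library total by TMM; SD, n = 3) in unstimulated control cells and at 29.5 ± 1.56 in unstimulated A17.2 cells. With cytokines it stood at 108.9 ± 17.4 and 44.9 ± 6.65 CPM. All 8 epithelial markers of a list, *Epcam* and *Krt8* among them, were below 1 CPM in every library (summed level 0.130 to 0.544 CPM), so the markers that define a carcinoma of the colon were absent or nearly so. Of 9 markers of other cell types in the table, 6 stayed below 1 CPM in every library, with *Cd3e* at 0. The fibroblast-type markers *Pdgfra* (16.9 to 59.9 CPM) and *Dcn* (5.07 to 54.6 CPM) were detected, and *Cd68* was low (1.45 to 3.81 CPM). The summed level of these 9 markers was 41.2 to 68.8 CPM in unstimulated A17.2 cells against 42.9 to 57.9 in unstimulated controls, and 44.4 to 82.2 against 38.3 to 48.1 with cytokines. *Dcn* was higher in A17.2 than in control cells with cytokines in the blocked fit described below (log2 fold change 0.92 ± 0.22, adjusted p = 0.00416). The part of these markers in the differences below was not tested.

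*Malat1* and *Neat1* are nuclear RNAs. *Malat1* gathers in nuclear speckles, which store splicing factors. The long form of *Neat1* is the backbone of paraspeckles, nuclear bodies that form around it. *Gas5* and *Snhg1* are host genes of small nucleolar RNAs (snoRNAs), which lie in their introns and guide the modification of ribosomal RNA, while the spliced host RNA is a target of nonsense-mediated decay. *H19* and *Kcnq1ot1* are imprinted RNAs of distal mouse chromosome 7. *H19* is transcribed from the maternal copy and holds the microRNA miR-675, and *Kcnq1ot1* is transcribed from the paternal copy, antisense to *Kcnq1*, and silences genes around it. *Yam1* was described in mouse muscle cells as an RNA controlled by the factor YY1.

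In GRCm38 with the GENCODE M21 annotation, *Malat1* (ENSMUSG00000092341.3) lies at chr19:5795690-5802672 and *Neat1* (ENSMUSG00000092274.3) at chr19:5824708-5845478, both on the minus strand and 22.0 kb apart. *Snhg1* (ENSMUSG00000108414.1) lies on the same chromosome at chr19:8723475-8726443, on the plus strand. *Gas5* (ENSMUSG00000053332.13) lies at chr1:161034422-161038539 on the plus strand. *H19* (ENSMUSG00000000031.16) lies at chr7:142575529-142578143 and *Kcnq1ot1* (ENSMUSG00000101609.2) at chr7:143203458-143296549, both on the minus strand with 625.3 kb between them. *Yam1* was found under that name neither in GENCODE M21 nor in the RefSeq gene table used here, so no position, length or sequence is given for it. For the same reason its overlap with ribosomal RNA could not be checked.

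The 3′ ends of the nuclear RNAs are shown because the libraries were selected for poly(A) and these RNAs do not all end in a poly(A) tail added in the usual way. The long *Neat1* transcript and mature *Malat1* end in an A-rich tract copied from the genome, which folds back on upstream U-rich stretches into a triple helix. The first 2 sequences below end with that tract in capitals, with the upstream run of T and its central GC also in capitals, and the *Malat1* transcript as annotated goes on for 292 bases beyond it. The third ends a short *Neat1* transcript of 3004 bases, with its AATAAA polyadenylation signal in capitals. The table gives 1 row for all forms of each gene.
*Malat1*, chr19:5795982-5796061, minus strand: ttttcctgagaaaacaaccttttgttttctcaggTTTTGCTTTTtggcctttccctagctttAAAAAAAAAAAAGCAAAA
*Neat1* long, chr19:5824708-5824787, minus strand: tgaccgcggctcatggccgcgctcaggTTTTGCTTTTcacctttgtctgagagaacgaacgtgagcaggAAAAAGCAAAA
*Neat1* short, chr19:5842307-5842366, minus strand: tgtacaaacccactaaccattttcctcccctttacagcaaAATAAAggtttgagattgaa

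The start sites of the snoRNA host genes are shown because such genes, like those of ribosomal proteins, typically begin with C and a run of pyrimidines, the 5′ TOP motif. The lines give 20 bases before and 40 bases from the RefSeq start, with the run of pyrimidines at the start in capitals. The table holds 2 starts for *Gas5*, of which the downstream one is shown, and the upstream one has a pyrimidine run of 0 bases.
*Gas5*, chr1:161035146-161035205, plus strand: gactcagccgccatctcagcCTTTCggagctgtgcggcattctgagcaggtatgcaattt
*Snhg1*, chr19:8723467-8723526, plus strand: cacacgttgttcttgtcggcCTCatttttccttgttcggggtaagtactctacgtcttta
The downstream *Gas5* start held C followed by 4 pyrimidines, as did 2.51% of 32851 promoters in the table, and the *Snhg1* start held a run of 3. Promoters of *Malat1*, *Gas5*, *Snhg1* and *Kcnq1ot1* were in the RefSeq table of GRCm38, from 250 bases before to 50 after the start. On both strands none of them held the NF-kB consensus (8.46% of all promoters), the GAS motif TTCNNNGAA (8.3%), the ISRE core, GAAA and GAAA spaced by 2 bases (3.44%), or the E-box CACGTG (7.15%). This says only that these letters are not in those windows.

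*H19* carries the microRNA that is shown here because its row in the table stood at 0 counts in all 12 libraries. Its mature forms, from RefSeq on GRCm38 with the seed in capitals, are as follows.
mmu-miR-675-5p: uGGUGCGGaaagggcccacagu
mmu-miR-675-3p: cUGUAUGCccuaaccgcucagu
The rows of the 7 small RNAs of the table that lie inside *Gas5* and of the 8 inside *Snhg1* were at 0 in every library as well. In the annotation all these small RNAs, miR-675 included, lie wholly within exons of their hosts, and the RNA was selected for poly(A). A count of 0 therefore does not show that they were absent from the cells. Among genes on the opposite strand, *Kcnq1* overlaps *Kcnq1ot1*, shares 121 exon bases with it and held 8 counts over all libraries, and *Zbtb37* overlaps *Gas5* without sharing an exon base (15.4 to 31.9 CPM). The strand setting of the counting is not given in the sources used here.

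The libraries numbered 1 stood apart from those numbered 2 and 3 in all 4 groups. *Neat1* was 4.36 to 5.52 times higher in the library numbered 1 than in the mean of the others of its group. *Gas5* was 2.79 to 3.98 times, *Snhg1* 1.98 to 4.02 times and *Malat1* 1.81 to 2.41 times higher there. *Yam1* was 2.46 to 3.64 times lower and *H19* 3.59 to 8.01 times lower in the library numbered 1. *Kcnq1ot1* had no common direction, at 0.672 to 2.17 times the mean of the others. Other RNAs moved with these. The summed level of the snoRNA rows was 129.3 to 288.1 CPM in the libraries numbered 1, 48.2 to 71.3 in those numbered 2 and 26.9 to 47.7 in those numbered 3. What the libraries numbered 1 have in common, beyond a title without a number, is not given in the labels, and its part was not tested.

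Replicate number took the largest share of the variance of log2 CPM over the 12 libraries for 5 of the 7 RNAs. The share was 90.9% for *Yam1*, 76.5% for *H19*, 74.2% for *Neat1*, 73.6% for *Malat1* and 72.3% for *Gas5*, against a median of 41.5% over the 15649 genes tested. It was 43.3% for *Snhg1* and 9.71% for *Kcnq1ot1*. The shRNA took 50.6% of the variance of *Snhg1*, 41.9% of *Kcnq1ot1*, 25.2% of *Gas5*, 24.1% of *Neat1*, 18.3% of *H19*, 11.98% of *Malat1* and 5.09% of *Yam1*. Cytokines took under 3% for every member but *Kcnq1ot1*, where they took 10.7%.

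**Figure D1:**
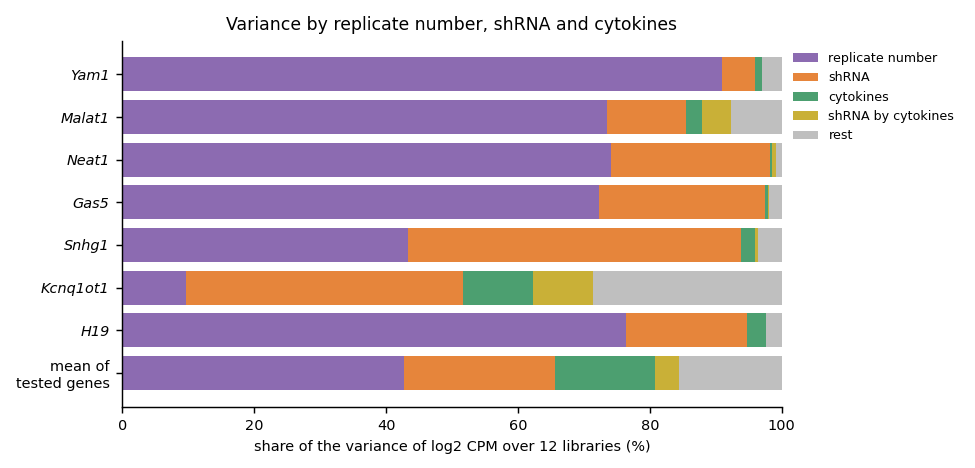
Share of the variance of log2 CPM over 12 libraries (x axis, %) that goes with replicate number, shRNA, cytokines, their interaction and the rest, for each of the 7 RNAs and as the mean over the 15649 genes tested. Replicate number takes the largest share for 5 RNAs, up to 90.9% for *Yam1*, and shRNA takes the largest for *Snhg1* (50.6%) and *Kcnq1ot1* (41.9%).

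The spread between libraries of a group followed. The coefficient of variation from edgeR's fit without replicate number was 0.778 for *Neat1*, 0.739 for *H19* and 0.590 for *Gas5*, above that of 95.3% to 98.9% of the genes tested. With replicate number as a block it was 0.110, 0.140 and 0.112, against a median of 0.105 over all genes. *Kcnq1ot1* gained least from the block. Its value was 0.368 without the block and 0.260 with it, above that of 96.5% of genes in the blocked fit. The numbers were taken to pair the libraries by the check given under the methods, with the limit given there. Each test below is therefore given without the block, which is the main test, and with it.

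**Figure D2:**
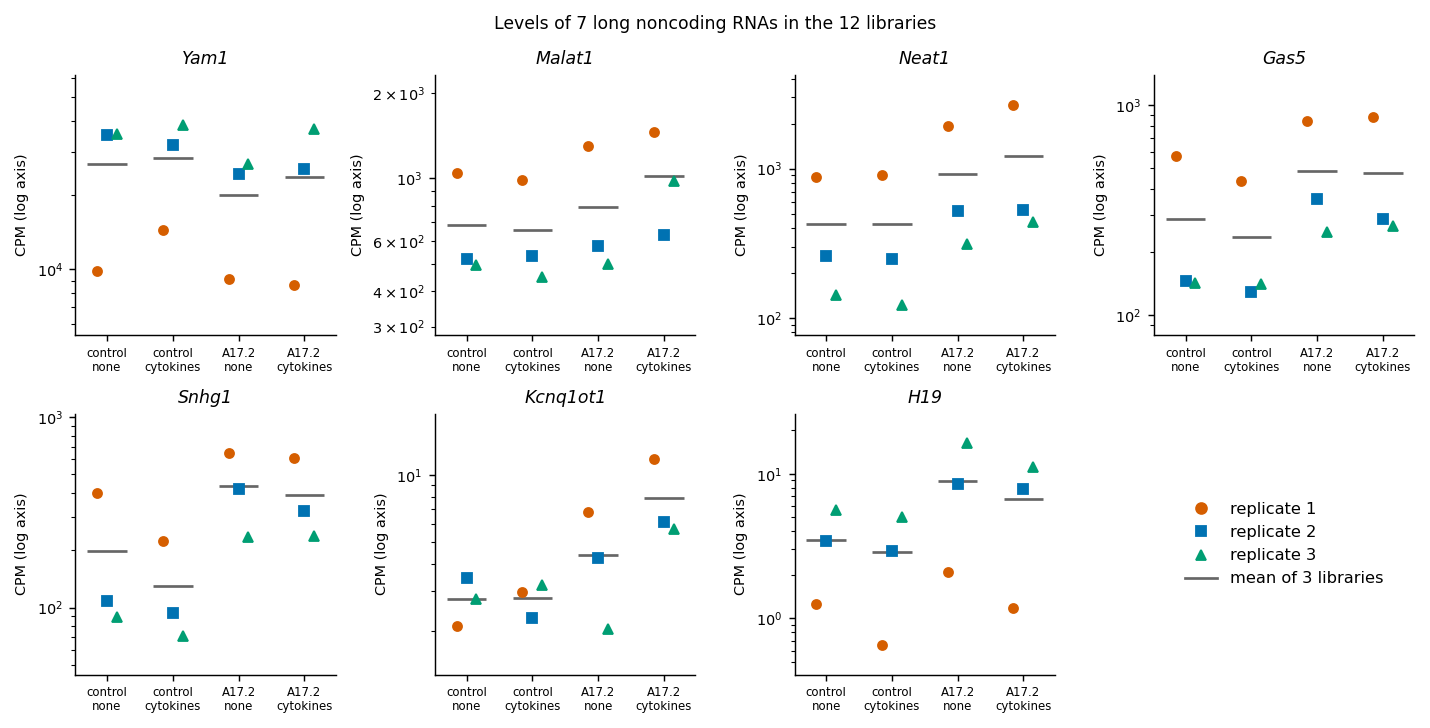
CPM of each RNA (y axis, log scale) in the 12 libraries by group, with symbols for replicates 1 to 3 and a line at the mean of 3 libraries. The libraries numbered 1 are the highest of their group for *Malat1*, *Neat1*, *Gas5* and *Snhg1* and the lowest for *Yam1* and *H19*, and within a replicate number *Neat1*, *Gas5*, *Snhg1* and *H19* are higher in A17.2 than in control cells.

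In CPM the order of the 7 RNAs was led by *Yam1*, which was 5.95 to 86.3 times higher than *Malat1*, the next, in all 12 libraries. *Malat1* was above *Neat1* in 10 libraries, *Neat1* above *Gas5* in 11 and *Gas5* above *Snhg1* in 10. *Snhg1* was at least 14.2 times above *H19* in all 12, whereas *H19* was above *Kcnq1ot1* in only 7. Per kb of annotated exon the order changed, because the exons of *Neat1* span 20771 bases and those of *Kcnq1ot1* 93092. The median over the 12 libraries was 86.5 CPM per kb for *Malat1* (64.1 to 208.1), 79.7 for *Snhg1* (24.0 to 219.1) and 73.6 for *Gas5* (34.1 to 232.7), and these 3 changed places between libraries. It was 23.1 for *Neat1*, 1.72 for *H19* and 0.0356 for *Kcnq1ot1*. The values of *Neat1* are over the exons of its long form, and the table does not separate the forms. Exon lengths join all annotated transcripts of a gene, which gave 2969 bases for *Snhg1*, its whole span, and 3760 for *Gas5*. Their single transcripts run from 312 to 2728 and from 346 to 2556 bases. A shorter length would raise both values, so the order of *Malat1*, *Snhg1* and *Gas5* per kb depends on the length used.

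*Yam1* held 0.892% to 3.57% of all counts of a library and was the top gene in 9 of 12. In unstimulated cells its levels in replicates 1 to 3 were 9877, 35249 and 35438 CPM with control shRNA, against 9135, 24280.3 and 26664 with A17.2. With cytokines they were 14381, 32063 and 38645 CPM in control cells, and 8639, 25581 and 37240.2 in A17.2 cells. The groups overlapped throughout, but the A17.2 library was the lower in each of the 6 pairs of equal number. The difference did not pass the test without cytokines (log2 fold change -0.42 ± 0.63 SE, adjusted p = 0.824, edgeR) or with them (-0.25 ± 0.63, adjusted p = 0.887). With the replicate block the log2 fold changes were -0.36 ± 0.16 (adjusted p = 0.0921) and -0.37 ± 0.16 (adjusted p = 0.0779). The blocked call turned without the libraries numbered 1 in the unstimulated comparison (-0.51, adjusted p = 0.0190), and with cytokines without the A17.2 library numbered 3 (-0.53, adjusted p = 0.0315). Where a top gene is high, less of the total is left for the others, which TMM scaling is meant to offset. Without *Yam1* and the ribosomal RNA rows (*Rn5s*, *mt-Rnr1* and *mt-Rnr2*) in the library size, the directions given for A17.2 against control cells stayed as they are.

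Without the block, 0 of the 7 RNAs passed edgeR's test between A17.2 and control cells in unstimulated cells (background 6.43% of 15649 genes), 0 had an unadjusted p under 0.05 and DESeq2 called 0. With cytokines 0 passed as well (background 6.85%), with 2 at an unadjusted p under 0.05 (21% of genes) and 1 called by DESeq2 (12.7% of genes), shares of the 7 that are near those of all genes. With the replicate block, 4 of 7 were higher in unstimulated A17.2 cells (background 15.9% of genes higher), namely *Neat1*, *Gas5*, *Snhg1* and *H19*. With cytokines 6 of 7 were higher (background 17.9%), adding *Malat1* and *Kcnq1ot1*. None was lower in either. The median log2 fold change of the members in the blocked fit was 0.89 and 1.18, against 0.01 and 0.01 over all genes tested. In 5 of 7 RNAs all 3 unstimulated pairs of equal number were higher in A17.2 cells (28.1% of genes tested), and in 6 of 7 with cytokines (30.6%). The members were chosen with earlier results of these data known, so these shares describe the 7 and do not test them as a set. The calls are also not separate from each other. Deviations of *Malat1*, *Neat1*, *Gas5* and *Snhg1* from their group means correlated at 0.874 to 0.964.

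**Figure D3:**
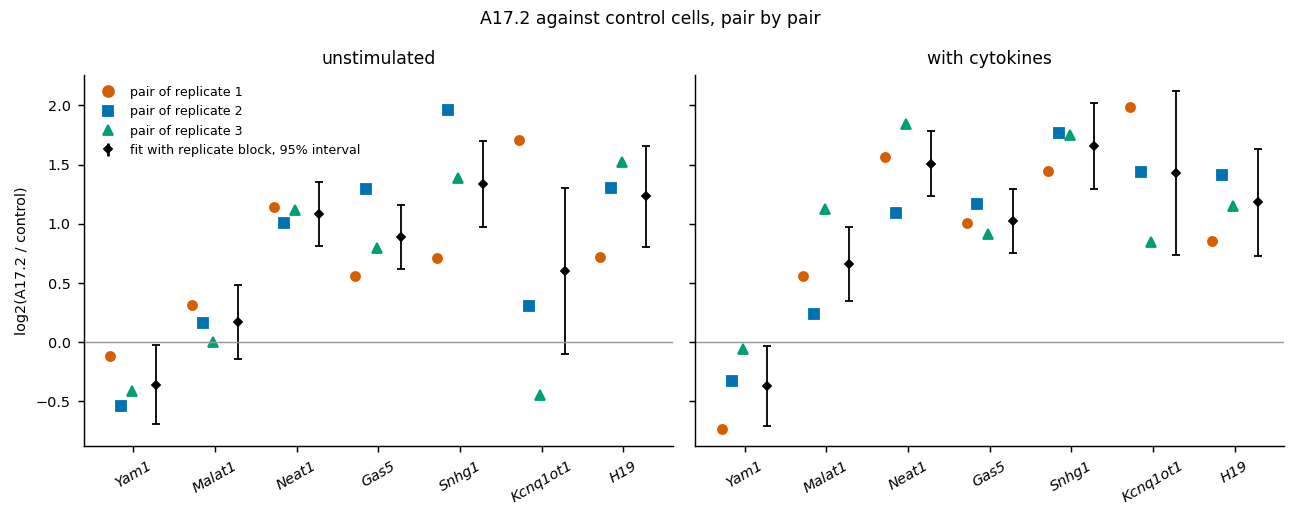
log2 ratio of A17.2 to control cells (y axis) in each pair of libraries of equal number, in unstimulated cells (left) and with cytokines (right), beside the estimate of the fit with the replicate block and its 95% interval. *Neat1*, *Gas5*, *Snhg1* and *H19* lie above 0 in all 6 pairs, *Yam1* lies below 0 in all 6, and *Malat1* and *Kcnq1ot1* lie above 0 in all 3 pairs with cytokines, while 1 unstimulated pair of *Kcnq1ot1* lies below 0.

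*Neat1* had the closest agreement between the unstimulated pairs. Its unstimulated levels in replicates 1 to 3 were 878, 260.3 and 143 CPM in control cells, against 1933, 522 and 310.5 in A17.2 cells. With cytokines they were 904, 247 and 122 CPM in control cells, against 2672, 528 and 439 in A17.2 cells. Within a pair the unstimulated ratio was 2.20, 2.01 and 2.17, while the groups overlapped because the control library numbered 1 was higher than A17.2 libraries 2 and 3. The test without the block gave 1.11 ± 0.99 (log2, SE; adjusted p = 0.650) and the blocked one 1.09 ± 0.13 (adjusted p = 1.71e-05). With cytokines the ratios were 2.96, 2.14 and 3.59, and the log2 fold change was 1.52 ± 1.00 (adjusted p = 0.446) or, blocked, 1.51 ± 0.13 (adjusted p = 1.18e-06). Under 15 ways of leaving libraries out the blocked estimate stayed between 1.03 and 1.19 unstimulated and between 1.34 and 1.71 with cytokines, and was called each time.

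*Malat1*, next to it on the chromosome, differed less. Its unstimulated levels were 1041, 518 and 496 CPM in control cells, against 1296, 579 and 498 in A17.2 cells. With cytokines they were 987, 534.5 and 448 CPM in control cells, against 1453, 629 and 979 in A17.2 cells. The unstimulated pairs lay at 1.25, 1.12 and 1.00 times control, a difference that did not pass the blocked test (0.17 ± 0.15, adjusted p = 0.408, 95% interval -0.14 to 0.48). With cytokines the pairs lay at 1.47, 1.18 and 2.19, and the blocked log2 fold change was 0.66 ± 0.15 (adjusted p = 0.00286), against 0.64 ± 0.46 (adjusted p = 0.499) without the block. That call rests in part on the libraries numbered 3, without which it was 0.39 (adjusted p = 0.0673).

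*Gas5* and *Snhg1*, the snoRNA hosts, were both higher in A17.2 cells. *Gas5* stood at 574, 146 and 142 CPM in unstimulated control cells, against 844, 358 and 247 in A17.2 cells. With cytokines it stood at 435, 128 and 141 CPM in control cells, against 875, 287 and 266 in A17.2 cells. The difference between A17.2 and control cells for *Gas5* was 0.75 ± 0.72 (adjusted p = 0.688, log2) unstimulated and 1.02 ± 0.73 (adjusted p = 0.488) with cytokines. Blocked, these were 0.89 ± 0.13 (adjusted p = 0.000105) and 1.03 ± 0.13 (adjusted p = 3.03e-05). Pair by pair A17.2 cells held 1.47, 2.45 and 1.74 times as much unstimulated, and 2.01, 2.24 and 1.89 times as much with cytokines.

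*Snhg1* had the largest blocked difference of the 7 in both conditions. It stood at 398, 108 and 89.5 CPM in unstimulated control cells, against 651, 422 and 234 in A17.2 cells. With cytokines it stood at 224, 94.1 and 71.2 CPM in control cells, against 609, 319.6 and 239 in A17.2 cells. With cytokines its groups did not overlap, but the share of all genes with groups that do not overlap was not counted. The log2 fold change was 1.13 ± 0.63 unstimulated (adjusted p = 0.387) and 1.59 ± 0.64 with cytokines (unadjusted p = 0.0302, adjusted p = 0.177). Blocked, it was 1.34 ± 0.17 (adjusted p = 3.76e-05) and 1.66 ± 0.17 (adjusted p = 6.4e-06), or 2.52-fold and 3.15-fold. Without the libraries numbered 1, *Snhg1* and *Gas5* were called in both conditions even in the fit without the block, *Snhg1* at 1.70 (adjusted p = 0.00552) and 1.76 (adjusted p = 0.00547), *Gas5* at 1.04 (adjusted p = 0.0065) and 1.04 (adjusted p = 0.00738).

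*H19* was low and was higher in A17.2 cells in every pair. Its unstimulated levels were 1.27, 3.45 and 5.66 CPM in control cells, against 2.09, 8.50 and 16.2 in A17.2 cells. With cytokines they were 0.655, 2.94 and 5.02 CPM in control cells, against 1.19, 7.84 and 11.2 in A17.2 cells. The lowest of these levels was 11 counts and the highest 448. The library numbered 1 was the lowest of each group, and in each of the 6 pairs the A17.2 library was the higher, by 1.65 to 2.87 times. The log2 fold change was 1.38 ± 0.91 (adjusted p = 0.496) unstimulated and 1.21 ± 0.92 (adjusted p = 0.524) with cytokines. Blocked, it was 1.23 ± 0.20 (adjusted p = 0.000267) and 1.18 ± 0.21 (adjusted p = 0.000547).

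*Kcnq1ot1*, the other imprinted RNA, was near 3 CPM in control cells. It stood at 2.09, 3.45 and 2.77 CPM in unstimulated control cells, against 6.80, 4.25 and 2.03 in A17.2 cells. With cytokines it stood at 2.98, 2.27 and 3.19 CPM in control cells, against 11.8, 6.15 and 5.74 in A17.2 cells. The unstimulated pairs did not share a direction, and the difference did not pass the test (0.66 ± 0.42, adjusted p = 0.473; blocked 0.60 ± 0.33, adjusted p = 0.174). With cytokines every A17.2 library was above every control library, but the share of all genes with such a difference was not counted. That difference was 1.49 ± 0.43 (unadjusted p = 0.00491, adjusted p = 0.0624) without the block, 1.43 ± 0.32 (adjusted p = 0.00310) with it and was called by DESeq2 without a block (adjusted p = 0.0101). A gene of 93092 exon bases with 50 to 387 counts has thin cover.

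Cytokines moved none of the 7 RNAs past the test. In control cells 0 of 7 were called (background 3.32% of genes), with 0 at an unadjusted p under 0.05 and 0 called by DESeq2. In A17.2 cells the counts were also 0, 0 and 0 (background 4.26%). With the replicate block edgeR again called 0 of 7 in control cells (background 19.3%) and 0 of 7 in A17.2 cells (background 17.6%). The 3 pairs shared a direction for 3 of 7 RNAs in control cells (54% of genes tested), all lower with cytokines, and for 4 of 7 in A17.2 cells (56.7%), 3 higher and 1 lower.

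**Figure D4:**
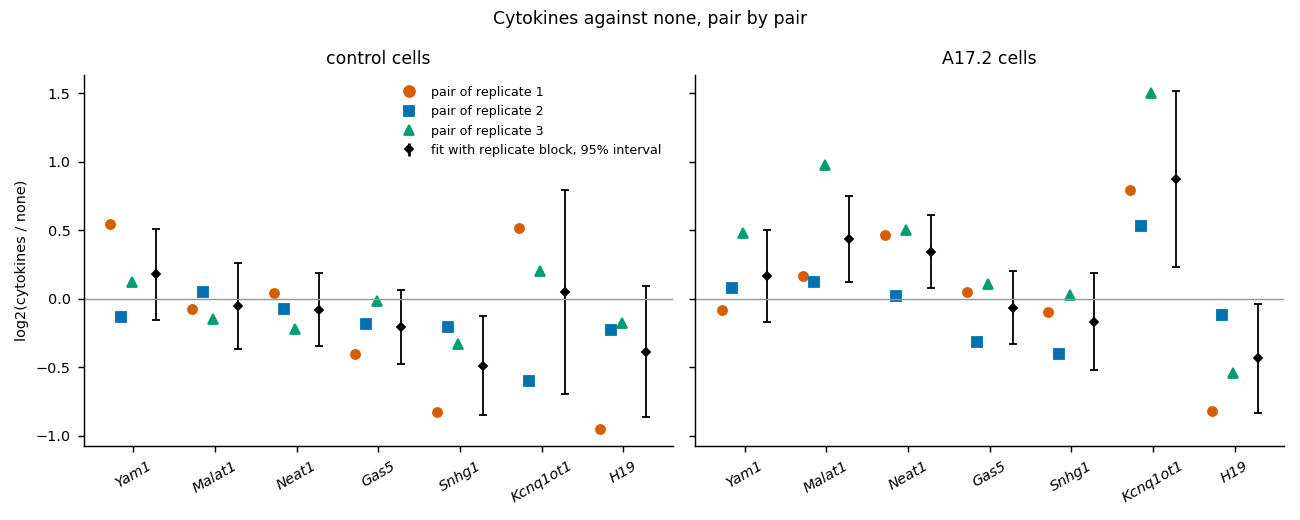
log2 ratio of cytokine-treated to untreated cells (y axis) in each pair of libraries of equal number, in control (left) and A17.2 cells (right), beside the estimate of the fit with the replicate block and its 95% interval. *Snhg1* lies below 0 in all 3 control pairs, *Malat1*, *Neat1* and *Kcnq1ot1* lie above 0 in all 3 A17.2 pairs, and *H19* lies below 0 in all 6 pairs; no RNA passed the adjusted threshold of 0.05.

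The largest cytokine difference in control cells was that of *Snhg1*, which was 0.563, 0.869 and 0.795 times the untreated level in the 3 pairs. Its blocked log2 fold change was -0.49 ± 0.17 (adjusted p = 0.0553), and it was -0.61 ± 0.63 (adjusted p = 0.878) without the block. In A17.2 cells the *Snhg1* pairs lay at 0.936, 0.758 and 1.02 (blocked -0.17 ± 0.17, adjusted p = 0.537). *Gas5* lay at 0.758, 0.878 and 0.991 times the untreated level in control cells (blocked -0.20 ± 0.13, adjusted p = 0.293) and had no common direction in A17.2 cells (blocked -0.06 ± 0.13, adjusted p = 0.770).

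In A17.2 cells 3 RNAs lay just short of the threshold with the block. *Kcnq1ot1* was 1.73, 1.45 and 2.83 times the untreated level in the 3 pairs (0.87 ± 0.30, adjusted p = 0.0579). *Malat1* was 1.12, 1.09 and 1.97 times (0.44 ± 0.15, adjusted p = 0.0542), with most of the difference in the pair numbered 3. *Neat1* was 1.38, 1.01 and 1.41 times (0.34 ± 0.12, adjusted p = 0.0728). These calls turned with the choice of test. DESeq2 with the same block, chosen after seeing the data, called *Malat1* (adjusted p = 0.0132), *Neat1* (0.0262) and *Kcnq1ot1* (0.0275) in A17.2 cells (18% of all genes) and *Snhg1* (0.0220) in control cells (20.2%). The marker *Dcn* moved in the same comparison. In A17.2 cells its level was 11.7, 8.23 and 6.85 CPM without cytokines and 54.6, 16.6 and 12.2 CPM with them (blocked 1.43 ± 0.22, adjusted p = 0.000219), and its rise in control cells was 0.68 ± 0.23 (adjusted p = 0.0484). *Pdgfra* was lower with cytokines in all 3 pairs in A17.2 cells (blocked -0.27 ± 0.14, adjusted p = 0.203) and in control cells (-0.43 ± 0.14, adjusted p = 0.0478). In control cells the blocked differences were -0.06 ± 0.15 for *Malat1* and -0.08 ± 0.13 for *Neat1*, with 95% intervals of -0.37 to 0.26 and -0.35 to 0.19.

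*H19* was lower with cytokines in all 6 pairs, at 0.516, 0.853 and 0.886 times the untreated level in control cells and 0.568, 0.923 and 0.688 times in A17.2 cells. Its blocked log2 fold changes, -0.39 ± 0.22 (adjusted p = 0.259) and -0.43 ± 0.19 (adjusted p = 0.126), did not pass. *Yam1* lay at 1.46, 0.910 and 1.09 times in control cells and 0.946, 1.05 and 1.40 times in A17.2 cells, with blocked log2 fold changes of 0.18 ± 0.16 (adjusted p = 0.479) and 0.17 ± 0.16 (adjusted p = 0.511). The 95% intervals for *Yam1* ran from -0.16 to 0.51 and from -0.17 to 0.50.

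The cytokine responses of A17.2 and control cells were also compared directly. Without the block 0 of 7 RNAs passed (background 0% of 15649 genes, with 208 at an unadjusted p under 0.05 and 27 called by DESeq2), none of the 7 had an unadjusted p under 0.05, and DESeq2 called none of them. With the block 0 of 7 passed (background 0.415%). The largest blocked differences of responses were those of *Kcnq1ot1* (0.82 ± 0.46, adjusted p = 0.592), *Malat1* (0.49 ± 0.21, adjusted p = 0.475) and *Neat1* (0.42 ± 0.18, adjusted p = 0.474). The 95% interval for *Kcnq1ot1* ran from -0.16 to 1.80 and so held both no difference and a difference of over 3-fold.

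Other genes of the same families and partners of the 7 RNAs were described from lists. Among 9 tested snoRNA host genes other than *Gas5* and *Snhg1*, 0 passed without the block in either condition. With the block 4 were higher and 1 lower in unstimulated A17.2 cells (33.4% of all genes changed in either direction), and 6 were higher and 1 lower with cytokines (37%). Their median blocked log2 fold change was 0.34 and 0.54, against 0.01 and 0.01 over all genes. *Snhg12* stood at 76.0, 34.2 and 41.7 CPM in unstimulated control cells, against 113.9, 97.8 and 84.6 in A17.2 cells. The host's log2 fold change was 0.96 ± 0.35 (adjusted p = 0.149; blocked 1.04 ± 0.16, adjusted p = 0.000204) and with cytokines 1.08 ± 0.35 (adjusted p = 0.0942; blocked 1.17 ± 0.16, adjusted p = 8.04e-05). *Snhg6* rose in the blocked fit by 0.72 ± 0.10 (adjusted p = 6.47e-05) and 0.89 ± 0.10 (adjusted p = 1.12e-05), and *Snhg5* with cytokines by 1.07 ± 0.12 (adjusted p = 1.03e-05). *Snhg18* was the host that was lower, at -0.51 ± 0.18 (adjusted p = 0.0413) and -0.58 ± 0.19 (adjusted p = 0.0300). With cytokines against none, 2 hosts fell in the blocked fit in control cells, *Snhg5* (-0.56 ± 0.12, adjusted p = 0.00351) and *Snhg6* (-0.36 ± 0.10, adjusted p = 0.0174), and 0 changed in A17.2 cells. Of all genes 19.3% and 17.6% changed in either direction in these fits.

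Among 23 tested long noncoding RNAs outside the 7, 1 rose with cytokines in each kind of cell without the block (3.32% and 4.26% of all genes changed). It was *AW112010*, an interferon-inducible RNA, which stood at 0.370, 0.614 and 0.256 CPM in unstimulated control cells, against 5.18, 5.26 and 3.70 with cytokines (adjusted p = 0.00178). In A17.2 cells it stood at 0.0312, 0.0343 and 0 CPM unstimulated, against 0.426, 1.04 and 0.346 with cytokines (adjusted p = 0.00301). It was lower in A17.2 than in control cells in both conditions (adjusted p = 0.0108 and 0.00612). With cytokines 2 of the 23 were higher in A17.2 cells without the block, *Tug1* (0.85 ± 0.21, adjusted p = 0.0346) and *Trp53cor1* (1.20 ± 0.32, adjusted p = 0.0463), both of which are known from the p53 response. In that fit 6.85% of all genes changed in either direction. *Tug1* stood at 17.03, 13.8 and 11.6 CPM in control cells with cytokines, against 27.0, 22.9 and 26.6 in A17.2 cells. With the block the 23 split into 3 higher and 3 lower unstimulated and 7 higher and 3 lower with cytokines, near the 33.4% and 37% of all genes that changed in either direction. With cytokines against none, 3 rose and 2 fell in control cells and 5 rose and 1 fell in A17.2 cells with the block. Beside these stand 19.3% and 17.6% of all genes that changed in either direction.

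Genes for proteins of the nuclear bodies that hold *Neat1* and *Malat1* were described next. Of 15 paraspeckle protein genes, 0 passed without the block in unstimulated cells and 1 with cytokines (6.85% of all genes changed), *Cpsf7* (0.49 ± 0.11, adjusted p = 0.0267). *Cpsf7*, a cleavage factor for 3′ ends, stood at 137, 127.6 and 141 CPM in control cells with cytokines, against 204, 181 and 183 in A17.2 cells. With the block 2 rose and 2 fell unstimulated, and 3 rose and 3 fell with cytokines, near the 33.4% and 37% of all genes that changed in either direction. Those that fell included *Nono*, a core protein of paraspeckles (-0.42 ± 0.11, adjusted p = 0.00744, and -0.59 ± 0.11, adjusted p = 0.000664). The summed level of the 15 was 2344 to 2602 CPM over all libraries. Of 18 nuclear speckle protein genes 0 passed without the block. With it 1 rose and 1 fell unstimulated (33.4% of all genes changed) and 6 rose and 0 fell with cytokines (17.9% of all genes rose). The 6 included *Srrm2*, a scaffold of speckles (0.47 ± 0.11, adjusted p = 0.00364), and the splicing kinase *Clk1* (0.94 ± 0.10, adjusted p = 1.17e-05). *Srrm2* was also the gene whose levels were most like those of *Kcnq1ot1*.

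Around *H19*, *Igf2* and *Lsp1* were called with it in the blocked fit. *Tnnt3*, which lies 59.5 kb away and reached at most 1.38 CPM, was not called unstimulated (0.74 ± 0.45, adjusted p = 0.227). *Igf2*, the growth factor gene that is imprinted opposite to *H19* and lies 72.6 kb from it, stood at 0.634, 1.42 and 2.04 CPM in unstimulated control cells, against 0.998, 7.51 and 9.57 in A17.2 cells. With cytokines it stood at 0.595, 1.33 and 1.45 CPM in control cells, against 2.77, 7.24 and 9.19 in A17.2 cells, so the groups did not overlap. The log2 fold change of *Igf2* was 2.16 ± 0.75 (adjusted p = 0.127; blocked 1.95 ± 0.29, adjusted p = 0.000142) and with cytokines 2.48 ± 0.76 (adjusted p = 0.0801; blocked 2.54 ± 0.31, adjusted p = 2.51e-05). *Lsp1*, a gene for an actin-binding protein 80.7 kb from *H19* on the other side, rose by 1.15 ± 0.15 (adjusted p = 4.12e-05) and 0.92 ± 0.16 (adjusted p = 0.000393) in the blocked fit. It was at 1.43 to 4.09 CPM in the libraries numbered 1 and at 8.43 to 31.6 in the others. Of the 13 tested genes of this imprinted region, without *H19* and *Kcnq1ot1*, 0 passed without the block. With it 2 rose and 3 fell unstimulated and 3 rose and 2 fell with cytokines, with *Igf2* and *Lsp1* among those that rose in each. These counts are near the 33.4% and 37% of all genes that changed in either direction. Those that fell in both were *Cd81* and *Tssc4*, which lie toward *Kcnq1ot1* (with cytokines -0.46 ± 0.12, adjusted p = 0.00866, and -0.50 ± 0.11, adjusted p = 0.00273).

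**Figure D5:**
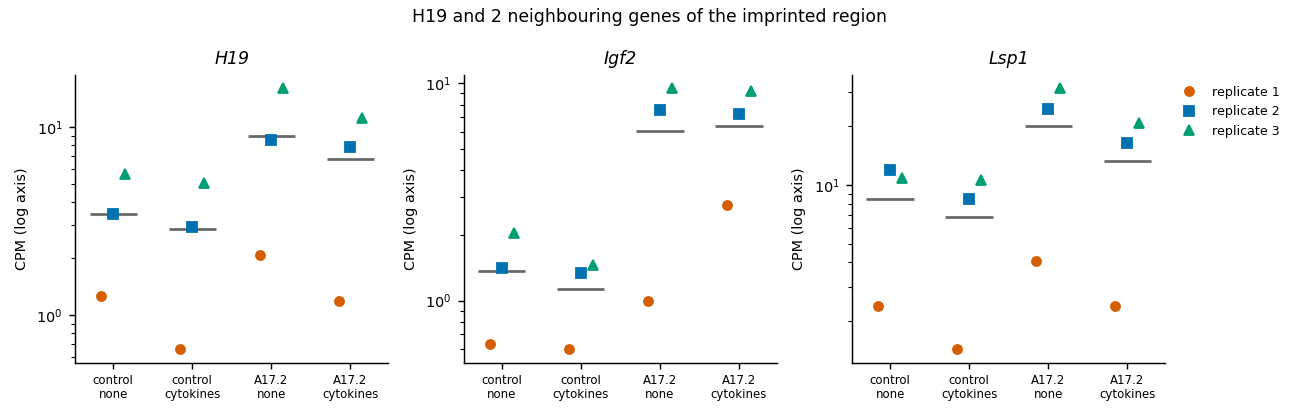
CPM of *H19*, *Igf2* and *Lsp1* (y axis, log scale) in the 12 libraries by group, with symbols for replicates 1 to 3 and a line at the mean. All 3 are lowest in the library numbered 1 of each group, and within a replicate number all 3 are higher in A17.2 than in control cells.

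Of 10 nonsense-mediated decay factors and 17 genes of RNA polymerase I and the nucleolus, 0 passed without the block in any comparison. With the block 3 decay factors rose and 2 fell in A17.2 cells in each condition, beside 33.4% and 37% of all genes changed in either direction in the same fits, shares that also stand beside the counts that follow. Of the nucleolar genes 3 rose and 1 fell unstimulated, and 4 rose and 1 fell with cytokines. The largest of these changes was *Taf1d*, itself a host of snoRNAs (0.89 ± 0.11, adjusted p = 3.96e-05, and 1.08 ± 0.12, adjusted p = 9.13e-06). Of 2 tested ribosomal RNA rows, both mitochondrial, 0 passed without the block and 1, *mt-Rnr1*, rose in A17.2 cells with it. Of 5 structured noncoding RNAs 0 passed without the block, and with it 1 rose and 1 fell unstimulated and 1 rose with cytokines.

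Genes with levels most like those of each RNA were taken from 10485 tested genes with a mean log2 CPM of at least 1. Pearson's r is given over 12 libraries as a description, and the libraries share shRNA, treatment and replicate number. *Yam1* was closest to *Eif3b* (0.986), *Asap1* (0.985) and *Pphln1* (0.984), and *Malat1* to *Arid4b* (0.972), *Ptprs* (0.966) and *Ikbkb* (0.960). *Neat1* was closest to *Paxbp1* (0.988), *Srsf11* (0.985) and *Rab10os* (0.985), and *Gas5* to *Arpc5l* (0.989), *Zscan26* (0.989) and *Zmym6* (0.985). *Snhg1* was closest to *Zfp532* (0.990), *Trub1* (0.987) and *Taf1d* (0.981). *Kcnq1ot1* was closest to *Srrm2* (0.892), *Ccdc28a* (0.882) and *Zfp287* (0.876). *H19* was closest to its neighbour *Lsp1* (0.979), then to *Rreb1* (0.978) and *Eef1g* (0.976), and its r with *Igf2* was 0.844. Among the 7, *Neat1*, *Gas5*, *Snhg1* and *Malat1* had r of 0.778 to 0.961 with each other. *Yam1* had r of -0.934 to -0.802 with these 4 and 0.707 with *H19*.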

How the data were processed

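Poly(A) RNA of 12 MC38CEA libraries was analysed from read counts per gene symbol, which the authors deposited without normalization. The submitters' processing notes name mm10. Aligner, counter, annotation and strand were not given in the sources used here. The 2 deposited tables of the authors' own comparisons (log2 fold changes and p-values) were not used.

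The software was edgeR 4.0.16 and, for alternatives, DESeq2 1.42.0, under R 4.3.3. Of 43271 genes, 15649 passed edgeR's default filter. All 12 libraries entered 1 quasi-likelihood fit in edgeR with a mean for each of the 4 groups and TMM scaling, and calls needed a Benjamini-Hochberg adjusted p under 0.05 over all genes tested. A standard error was taken as |log2 fold change| over the root of the F statistic. Levels are CPM scaled by TMM, or log2 CPM with a prior count of 2 for correlations and shares of variance.

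The labels call the libraries of a group biological replicates. Deviations from group means correlated at 0.309 to 0.850 in the 18 pairs of libraries of equal number, all over 0.1, and at -0.751 to 0.455 in the 36 other pairs, so the numbers were taken to pair the libraries and the blocked fit is given beside the main one. No pair of replicates looked like 1 library deposited again, as each differed by a chi-square of 20.2 or more for each degree of freedom.

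The named genes were mainly all 7 members, the 3 genes most like each, and up to 4 genes of each list by lowest adjusted p in a comparison. *Snhg18* and *Rn7sk* were chosen after their values were seen. *Gm26917* is in none of the lists and also falls outside this rule. The members and lists were chosen with earlier results of these data known. The alternatives tried were DESeq2, other scalings, other filters, the compared groups only, the block, and leaving out libraries. The blocked fits under other settings were added after seeing the data. Sequences and promoters come from GENCODE M21 and RefSeq on GRCm38.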

Additional observations from a re-analysis of the deposited data

How the results depend on the processing

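The 7 RNAs have few libraries and a replicate spread that the main test counts as noise, which limits it: 0 of 7 were called in all 5 comparisons. The replicate block gave 4 members called for A17.2 against control unstimulated and 6 with cytokines. Over all genes it gave 3021 and 2750 calls for cytokines in control and A17.2 cells, 5224 and 5791 for A17.2 against control, and 65 for the difference of responses, where *Yam1* turned to -0.011 (log2). Without the block, DESeq2 called 866, 1033, 1788, 1990 and 27 genes and 1 member (*Kcnq1ot1*, with cytokines), no filter called 2 members there and 28 genes for the difference of responses, and the compared groups alone gave 358 and 407 genes for A17.2 against control. Cytokine differences near 0 changed sign. In control cells *Neat1* became 0.013 with DESeq2, 0.012 with its size factors, 0.020 without *Yam1* and ribosomal RNA in the library size and 0.014 with the compared groups alone, and *Kcnq1ot1* became -0.045 with total counts. In A17.2 cells *Gas5* became 0.0031 with DESeq2 and 0.019 with the compared groups alone.

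With the block, other settings (chosen after seeing the data) called 1 member for cytokines in control cells with DESeq2 and 1 with total counts, and in A17.2 cells 3 with DESeq2, 1 with its size factors, 1 with total counts and 1 without *Yam1* and ribosomal RNA. DESeq2 called 135 genes for the difference of responses, where *Yam1* became 0.0038, or 0.0017 with its size factors. *Kcnq1ot1* in control cells became -0.029 with total counts.

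Leaving out libraries (each in turn, or a replicate number from every group) moved the unblocked values widely. For cytokines in control cells the log2 fold change ranged from -0.30 to 0.43 for *Yam1*, -0.44 to 0.38 for *Malat1*, -1.17 to 1.08 for *Neat1*, -1.05 to 0.71 for *Gas5*, -1.22 to 0.40 for *Snhg1*, -0.17 to 0.37 for *Kcnq1ot1* and -0.89 to 0.32 for *H19*, with 93 to 648 genes called. In A17.2 cells it ranged from -0.23 to 0.65 for *Yam1*, -0.93 to 1.58 for *Neat1*, -0.80 to 0.69 for *Gas5*, -0.64 to 0.28 for *Snhg1* and -0.997 to 0.35 for *H19*, with 156 to 843 genes called. For A17.2 against control unstimulated it ranged from -0.34 to 0.65 for *Malat1*, -0.028 to 2.21 for *Neat1* and -0.011 to 1.00 for *Kcnq1ot1*, with 0 to 3 members and 3 to 1533 genes called. With cytokines it ranged from -0.73 to 0.15 for *Yam1*, with 0 to 4 members and 4 to 1694 genes called. For the difference of responses it ranged from -0.31 to 0.57 for *Yam1*, -0.0046 to 0.99 for *Malat1*, -0.92 to 1.57 for *Neat1*, -0.72 to 1.04 for *Gas5*, -0.55 to 1.07 for *Snhg1* and -0.75 to 0.59 for *H19*, with 0 to 9 genes called. The 3 and 4 members were called without the libraries numbered 1.

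With the block the same omissions gave, for cytokines in control cells, -0.16 to 0.032 for *Malat1*, -0.17 to 0.030 for *Neat1* and -0.38 to 0.42 for *Kcnq1ot1*, with 0 to 1 members and 1480 to 3260 genes called. In A17.2 cells they gave -0.0025 to 0.33 for *Yam1*, -0.15 to 0.13 for *Gas5* and -0.28 to 0.053 for *Snhg1*, with 0 to 2 members and 1551 to 2797 genes called. For A17.2 against control they gave -0.031 to 0.99 for *Kcnq1ot1* unstimulated, with 3398 to 5344 genes called, and 3732 to 6090 genes with cytokines. For the difference of responses they gave -0.21 to 0.32 for *Yam1* and -0.26 to 0.18 for *H19*, with 0 to 157 genes called. In 15 such omissions *Neat1*, *Gas5*, *Snhg1* and *H19* were called higher in A17.2 cells each time in both conditions, *Kcnq1ot1* each time with cytokines, and *Malat1* in 14. The cause of these changes was not tested. Of the 21 genes most like a member, 2 stayed when deviations from the group means replaced levels. The means of the members moved by less than 1 SD under other scalings of the CPM. That bound is loose, as the SD within a group reached 104% of the mean (*Neat1*, A17.2 cells with cytokines).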

Other observations

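*Gm26917*, a predicted gene with a row of its own in the table, stood at 463 to 1417 CPM in the libraries numbered 1, 224 to 385 in those numbered 2 and 138 to 426 in those numbered 3. *Yam1* had the opposite order, with its lowest level of each group in the library numbered 1. Of the mitochondrial ribosomal RNA rows, *mt-Rnr2* was lowest in the library numbered 1 in 3 of 4 groups, with a range of 339.7 to 408 CPM in all 4 libraries numbered 1, 329 to 678 in those numbered 2 and 588 to 668 in those numbered 3. *mt-Rnr1* stood at 477 to 879 CPM in the libraries numbered 1, 373 to 604 in those numbered 2 and 484 to 685 in those numbered 3. *Rn7sk*, a short RNA made by RNA polymerase III, stood at 7.66 to 12.9, 7.30 to 9.21 and 7.496 to 11.99 CPM in the same order.

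The 7 RNAs together took 1.35% to 1.71% of all counts in the libraries numbered 1 and 2.62% to 3.74% in the others. Without *Yam1*, the other 6 took 0.258% to 0.580% in the libraries numbered 1 and 0.0731% to 0.192% in the others.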
